A study of Mus musculus with 3 samples.

Results

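Near-projecting-like neurons of layers 5 and 6 made up 308 of 52083 cell barcodes in 3 droplet single-cell libraries from the medial prefrontal cortex of mice (mPFC). The study asked how mPFC neurons differ with the estrous cycle and with sex. Each group was 1 library from 2 pooled mice: females in estrus, females in diestrus, or males. The labels give no strain, genotype or age, and no sort for neurons is described although the cell type is labelled as neurons. The 2 mice of a library cannot be separated, so library, mice and group cannot be told apart, no test between groups was possible, and every interval below covers counting error only.

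Members were chosen by measured counts in all 3 libraries. A barcode was taken as a member if it held at least 4000 unique molecular identifiers (UMIs, counted molecules), at most 15% of them mitochondrial, and passed 2 gates on UMIs per 10000. The glutamatergic gate asked for Slc17a7, the main vesicular glutamate transporter of cortex, at 1 or more, for Gad1 and Gad2 (GABA synthesis) summing below 1, and for C1qa, Cldn5, Mog and Gja1 (microglia, endothelium, oligodendrocytes, astrocytes) summing to at most 2. It left 4781 barcodes. Members then had Tshz2, a zinc finger transcription factor, and Vwc2l, a secreted von Willebrand C domain protein, both detected and summing to at least 8. The levels of these genes in members are therefore a description of the choice. The other 4473 barcodes of the gate are called other glutamatergic neurons below. Values for the 3 libraries are given in the order estrus, diestrus, male throughout.

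Near-projecting neurons are excitatory cells of deep cortex whose axons stay mostly within the cortex near the cell body, in contrast to extratelencephalic cells, which leave for the brainstem, and corticothalamic cells, which leave for the thalamus. They are known for Tshz2, for Htr2c, which encodes the Gq-coupled 5-HT2C serotonin receptor, and for Slc17a8, the vesicular glutamate transporter VGLUT3. Lypd1, also a known marker, encodes a GPI-anchored protein that binds nicotinic receptors.

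The rule itself parts members from the rest of the gate on the 2 rule genes, so their spread is given as a description only. Tshz2 and Vwc2l together summed below 1 UMI per 10000 in 1333 of 1445, 1516 of 1776 and 1331 of 1560 gate barcodes, and at 16 or more in 62, 137 and 81. Few barcodes lay near the threshold. The male library had no clear gap, with 33 barcodes from 2 to 4, 11 from 4 to 6, 5 from 6 to 8, 9 from 8 to 10 and 9 from 10 to 16. Over all 3 libraries the barcodes on each side of the threshold were counted. From 6 to 8 there were 13 barcodes, of which 8 held Lypd1, 3 Htr2c and 1 Slc17a8, and from 8 to 10 there were 11 members, of which 7, 6 and 3 did; another 4 barcodes from 8 to 10 had 1 of the 2 genes undetected. A sum above 8 with 1 of the 2 genes undetected was found in 1, 3 and 6 barcodes.

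Members numbered 72, 143 and 93. These were 4.98% of gate barcodes in estrus (95% exact Clopper-Pearson interval 3.92 to 6.23), 8.05% in diestrus (6.83 to 9.42) and 5.96% in male (4.84 to 7.25). The share was highest in diestrus and lowest in estrus. Depth differed between libraries in another order: members had a median of 26879, 19383 and 17435 UMIs, against 38541, 28399 and 15593 in other glutamatergic neurons. Among gate barcodes of 10000 to 30000 UMIs alone, the shares were 11.3% (8.14 to 15.1), 13.2% (10.6 to 16.1) and 10.1% (7.75 to 12.8), and these intervals overlapped. Layer 6 corticothalamic-like barcodes, taken from the same gate by Foxp2 and Syt6 both detected and summing to at least 4 per 10000, were also most frequent in diestrus, at 8.30%, 16.8% and 13.0%.

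**Figure D1:**
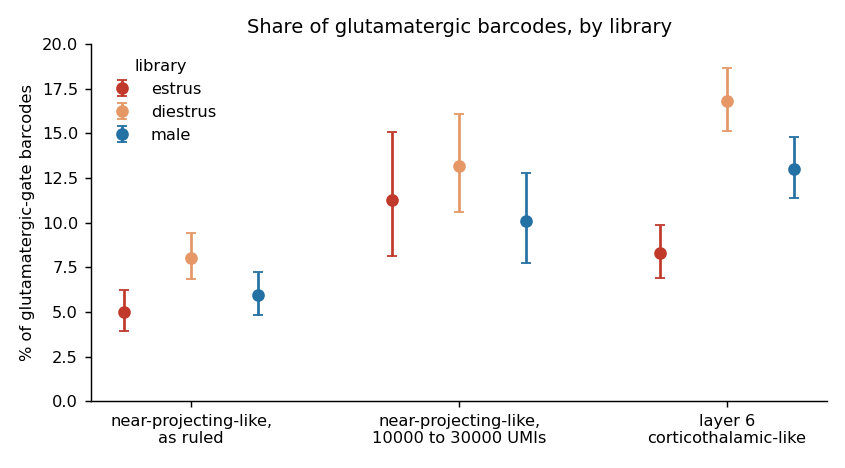
Share of glutamatergic-gate barcodes (%, y axis) that were near-projecting-like under the rule, near-projecting-like among barcodes of 10000 to 30000 UMIs, and layer 6 corticothalamic-like, in each library; bars are 95% Clopper-Pearson intervals over barcodes. The diestrus share is highest in each set, and the intervals do not cover differences between mice.

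The members' UMI totals ran from 6743 to 56639 in estrus, from 4018 to 111064 in diestrus and from 4027 to 53998 in male, and summed to 1965775, 2931029 and 1734754. Mitochondrial UMIs were 1.98%, 3.01% and 2.47% of the members' sum and 3.31%, 4.06% and 4.15% of that of other glutamatergic neurons. Libraries shared 68 to 97 barcode sequences pairwise, and no sequence was a member in 2 libraries. Xist, the RNA of the inactive X, was detected in 71 of 72 and 141 of 143 female members and in 0 of 93 male members, and Y-linked Eif2s3y in 0, 0 and 67. Of the other 3 Y-linked genes checked, Kdm5d and Uty had no UMI in female members, and Ddx3y had 8 UMIs in 7 diestrus members against 119 in 57 male members. Doublets were not called; the limits on other-class genes were the sole screen.

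Of the 3 markers that the rule did not use, Lypd1 and Htr2c were detected in most members. Lypd1 was detected in 71 of 72, 135 of 143 and 85 of 93 members, with a median of 7.49, 6.42 and 7.02 UMIs per 10000 and a range from 0 to 24.3, 18.2 and 17.1. Htr2c was detected in 88.9%, 87.4% and 83.9% of members and in 21.0%, 13.5% and 10.8% of other glutamatergic neurons. Microglia, which should lack it, held an Htr2c UMI in 0.227%, 1.73% and 0.852% of barcodes, at medians of 5210, 3886 and 2630.5 UMIs. When every barcode was thinned to 4000 UMIs the Htr2c shares were 61.7%, 70.5% and 66.8% in members against 4.68%, 4.21% and 4.25% in other glutamatergic neurons. These markers were measured in the same cells as the rule genes, so they describe the members and are no test.

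Slc17a8 was sparser. It was detected in 31 of 72, 53 of 143 and 38 of 93 members, and in 1.38%, 1.10% and 0.341% of other glutamatergic neurons. All 3 of Lypd1, Htr2c and Slc17a8 were found in 30, 49 and 32 members, which were also the deeper ones, with median UMIs of 31022.5, 22812 and 20655.5. None of the 3 was found in 9 members (1, 4 and 4). Those 9 were shallower than members with all 3, with median UMIs of 7183, 14501 and 6607, so their detection of other genes was not at like depth. Grik1 was detected in 2 of 9 against 269 of 299, and Il1rapl2, a synaptic adhesion gene, in 5 of 9 against 19 of 299. Etv1 was detected in 8 of 9. These 9 members were kept in all sums.

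**Figure D2:**
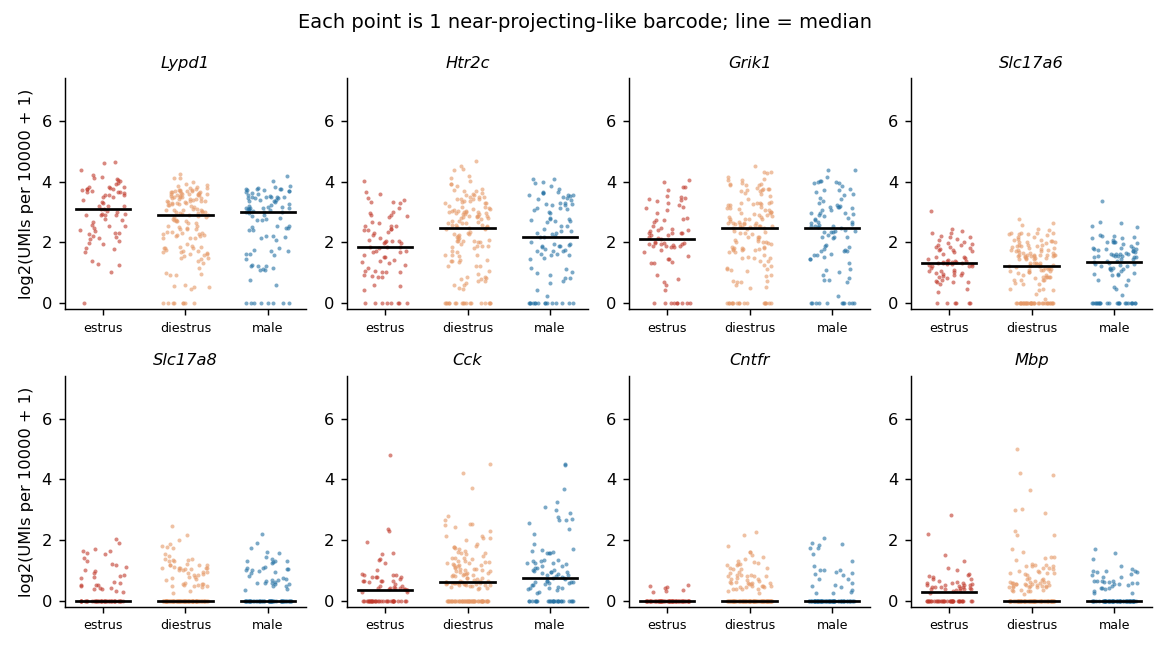
UMIs per 10000 of 8 genes in each near-projecting-like barcode, as log2 with 1 added (y axis), by library; each point is 1 barcode and the line is the median. Lypd1, Htr2c and Grik1 are present in most members of each library, Slc17a8 and Cntfr in a minority, Cck has a few barcodes far above the rest in each library, and Mbp in diestrus.

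Against other glutamatergic neurons, the genes furthest above included glutamate receptor, neurexin ligand and potassium channel subunit genes, and the genes furthest below included Cck. UMIs were summed per library over members and over other glutamatergic neurons and scaled to a total of 1000000 nuclear gene UMIs (CPM), and log2 ratios carry 1 CPM on each side. Of 7410 genes with at least 100 UMIs and a mean of 20 CPM, 223 (3.01%) were at least 2-fold higher in members in all 3 libraries and 263 (3.55%) at least 2-fold lower, and the median gene stood at 0.04. Scaling by edgeR's TMM factors lowered each ratio by 0.10 to 0.12 and gave 179 higher and 303 lower. None of the 25 genes chosen for this comparison turned direction under it or the other settings tried. They were chosen for the most extreme ratios, so this is no test of the settings. For the gene lists below, the shares over all genes are the 3.01% and 3.55% given here.

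The gene furthest above other glutamatergic neurons was Grik1, which encodes the GluK1 subunit of kainate-type glutamate receptors (chr16:87895900-88290265 in mm10). Its level was 470, 583 and 626 CPM in members and 1.32, 4.11 and 5.79 CPM in other glutamatergic neurons, log2 ratios of 7.66, 6.84 and 6.53. It was detected in 63, 126 and 82 members, with medians of 3.34, 4.52 and 4.55 UMIs per 10000 and highest values of 15.5, 22.1 and 20.0. Nxph1, a secreted ligand of alpha-neurexins (chr6:8948431-9249032), was 611, 592 and 746 CPM against 4.11, 15.4 and 20.2. Kcnip1, a calcium-binding subunit of A-type potassium channels (chr11:33629339-33993152), stood at 279, 308 and 275 CPM against 4.07, 4.94 and 3.85. No library's value for these 3 genes in members came within 10-fold of any library's value in other glutamatergic neurons.

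Htr2c (chrX:146962513-147197277) had 393, 538 and 511 CPM in members and 13.5, 13.4 and 13.6 elsewhere in the gate. Slc17a8 (chr10:89574020-89621253) had 52.9, 49.2 and 51.4 CPM against 0.587, 0.622 and 0.177. The remaining leaders were Stard5, a sterol transport protein, at 95.5, 138 and 151 CPM against 0.776, 2.59 and 3.46, Lcp1, an actin-bundling protein, at 58.6, 69.6 and 106 against 0.757, 1.91 and 1.34, Myl4, a myosin light chain, Abi3bp, an extracellular matrix protein, Myzap, and the noncoding RNAs Mirt1 and Gm15942. Lcp1 is also well known from microglia, whose 7 markers summed to 55.5, 46.4 and 112 CPM in members, 45.8% of the male sum in 1 barcode; Lcp1 itself was spread over 47, 75 and 65 members with at most 8.85% of its UMIs in any barcode, and the part of microglial RNA in its level was not tested.

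The gene set furthest below other glutamatergic neurons was led in level by Cck, the cholecystokinin peptide precursor. It stood at 114, 174 and 186 CPM in members and 3135, 1723 and 1582 CPM in other glutamatergic neurons, and 70.0%, 38.9% and 36.8% of the members' Cck UMIs came from a single barcode. Its median member held 0.284, 0.526 and 0.689 UMIs per 10000. Zfp804b, the TRP channel gene Trpc5, the kinase gene Stk32c, the Wnt amplifier Rspo2, the heparan sulfatase gene Sulf1, Bmp3, Syt17, S100a6 and Adcyap1 completed the set. Rspo2 stood at 2.59, 7.74 and 7.09 CPM against 68.4, 72.2 and 73.9.

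**Figure D3:**
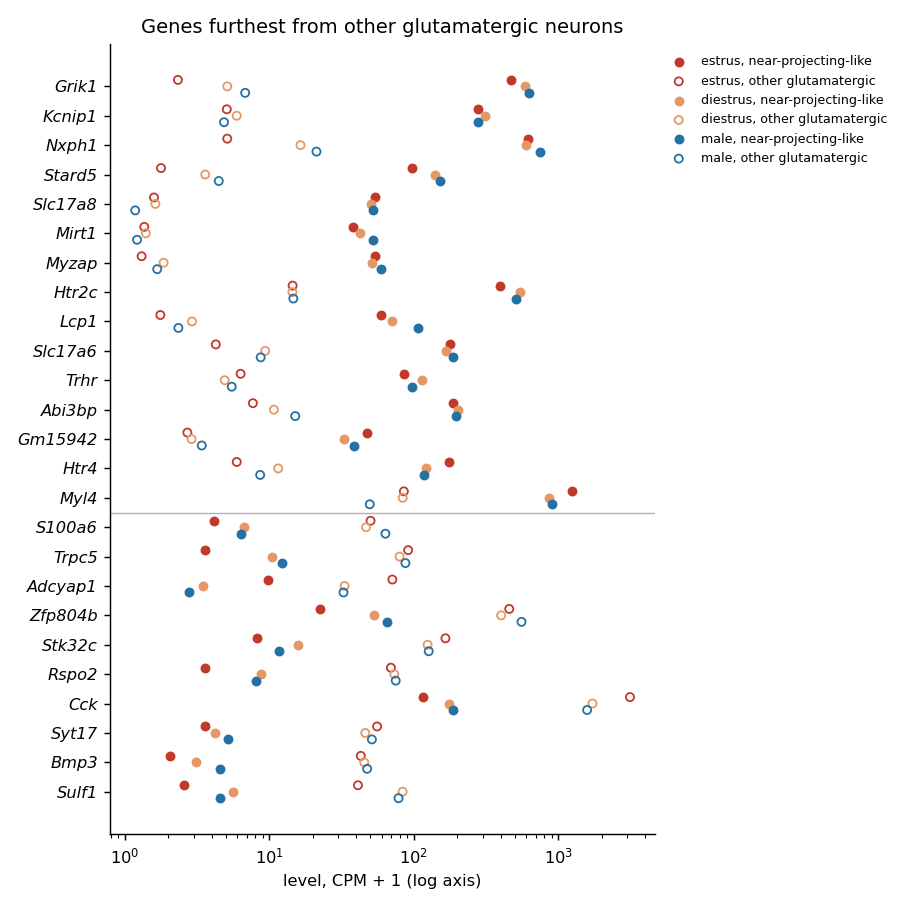
Levels (CPM + 1, log axis) of the 15 genes furthest above and the 10 furthest below other glutamatergic neurons, in near-projecting-like members (filled) and other glutamatergic neurons (open), coloured by library. Filled and open points separate for every gene in every library, which follows from how the genes were chosen.

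Members carried the transcripts of more than 1 vesicular glutamate transporter. Slc17a7, which the gate required, was lower in members than elsewhere in the gate, at 353, 346 and 332 CPM against 586, 579 and 558. Slc17a6, the transporter dominant in thalamus and brainstem, was 177, 165 and 187 CPM in members against 3.25, 8.34 and 7.70. Since the gate required Slc17a7 in every barcode, detection beside it is that of the other transporters alone. Slc17a6 was detected in 66 of 72 members (91.7%, 82.7 to 96.9), 108 of 143 (75.5%, 67.6 to 82.3) and 70 of 93 (75.3%, 65.2 to 83.6), against 7.43%, 13.7% and 9.61% of other glutamatergic neurons. Slc17a6 and Slc17a8 were both found in 28, 42 and 30 members and in 0 of 1373, 2 of 1633 and 0 of 1467 other glutamatergic neurons. Microglia held an Slc17a6 UMI in 0.265%, 0.942% and 0.351% of barcodes.

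Receptors for fast glutamate signalling differed mainly in the kainate family. All 7 kainate receptor and Neto auxiliary subunit genes were measured, and 3 were at least 2-fold higher and 1 at least 2-fold lower in all libraries. Grik1 was joined by Grik3 at 256, 254 and 259 CPM against 82.0, 116 and 106. The 2 auxiliary subunits went opposite ways. Neto2 was 466, 345 and 426 CPM in members against 43.7, 56.0 and 52.5, and Neto1 was 27.0, 37.6 and 41.4 CPM against 127, 191 and 165.

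Of 8 measured AMPA and NMDA subunit genes, 1 passed the 2-fold line in all libraries, Gria3, at 230, 293 and 310 CPM against 489, 719 and 752. Gria4 was 772, 927 and 956 CPM against 387, 518 and 586, a log2 ratio of 0.71 to 0.99. Of 6 metabotropic glutamate receptor genes, Grm4, a presynaptic Gi-coupled receptor, was at least 2-fold higher, at 45.2, 43.3 and 49.6 CPM against 7.38, 8.82 and 7.91. Of 13 GABA receptor genes, Gabrg3 was at least 2-fold higher (1070, 1090 and 1166 CPM against 286, 412 and 425), and Gabbr2, a subunit that GABA-B receptors need, at least 2-fold lower (73.2, 101 and 87.5 against 444, 382 and 373), as was Gabra2. Gabra2 was 54.5, 70.3 and 81.0 CPM in members and 61.3, 68.6 and 46.1 CPM in layer 6 corticothalamic-like barcodes. Gabbr2 was 587, 418 and 388 CPM in the latter. The list median was -0.32.

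Serotonin receptors showed both directions. Of 14 listed genes 4 reached the measuring limit, 2 at least 2-fold higher, 1 at least 2-fold lower and 1, Htr1f, within the 2-fold line. Htr4, the Gs-coupled 5-HT4 receptor, was 175, 120 and 117 CPM in members against 4.94, 10.5 and 7.63, and was detected in 58, 95 and 52 members. Htr2a, the 5-HT2A receptor, was 7.78, 11.96 and 8.27 CPM against 38.8, 38.0 and 35.8. In layer 6 corticothalamic-like barcodes Htr2a was lower still than in members, at 2.59, 2.71 and 2.83 CPM. Htr1f was 129, 195 and 195 CPM against 78.3, 190 and 192, log2 ratios of 0.72, 0.04 and 0.02. Htr3a and Htr3b, the ion channel subunits, had no UMI in any member, which allows up to 1.56, 1.06 and 1.77 CPM, and Htr1a and Htr1b stayed below 4 CPM in members and below 10 CPM elsewhere in the gate.

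Muscarinic acetylcholine receptors also differed by subtype. Chrm2, the Gi-coupled M2 receptor, was 275, 262 and 330 CPM in members against 26.1, 48.6 and 38.0. Chrm3, the Gq-coupled M3 receptor, was 4.15, 49.2 and 32.5 CPM against 181, 341 and 399, and was detected in only 3, 16 and 21 members. Chrm1 was 38.4, 47.8 and 42.0 CPM against 69.6, 77.7 and 80.7, within the 2-fold line.

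Peptide receptors included 2 with large ratios among 9 measured of 35 listed. Trhr, the receptor for thyrotropin-releasing hormone (chr15:44196135-44235912), was 84.6, 113 and 96.3 CPM in members against 5.32, 3.90 and 4.48, and was detected in 44, 98 and 59 members. Hcrtr2, the orexin type 2 receptor, was 60.7, 37.6 and 43.1 CPM against 4.14, 6.58 and 3.95. The cannabinoid receptor gene Cnr1 was lower, at 19.7, 39.7 and 31.9 CPM against 199, 123 and 117, as was the gastrin and cholecystokinin receptor gene Cckbr, at 4.67, 6.68 and 6.501 against 33.4, 43.7 and 45.0. Trh, the precursor of the ligand of Trhr, was under the measuring limit, at 19.7, 27.1 and 17.1 CPM in 13, 34 and 16 members, against 0.0568, 0.768 and 0.494 elsewhere. Of 11 measured peptide genes, Grp was at least 2-fold higher (287, 241 and 249 CPM against 85.4, 35.7 and 43.2), and Cck, Bdnf and Adcyap1 were at least 2-fold lower.

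**Figure D4:**
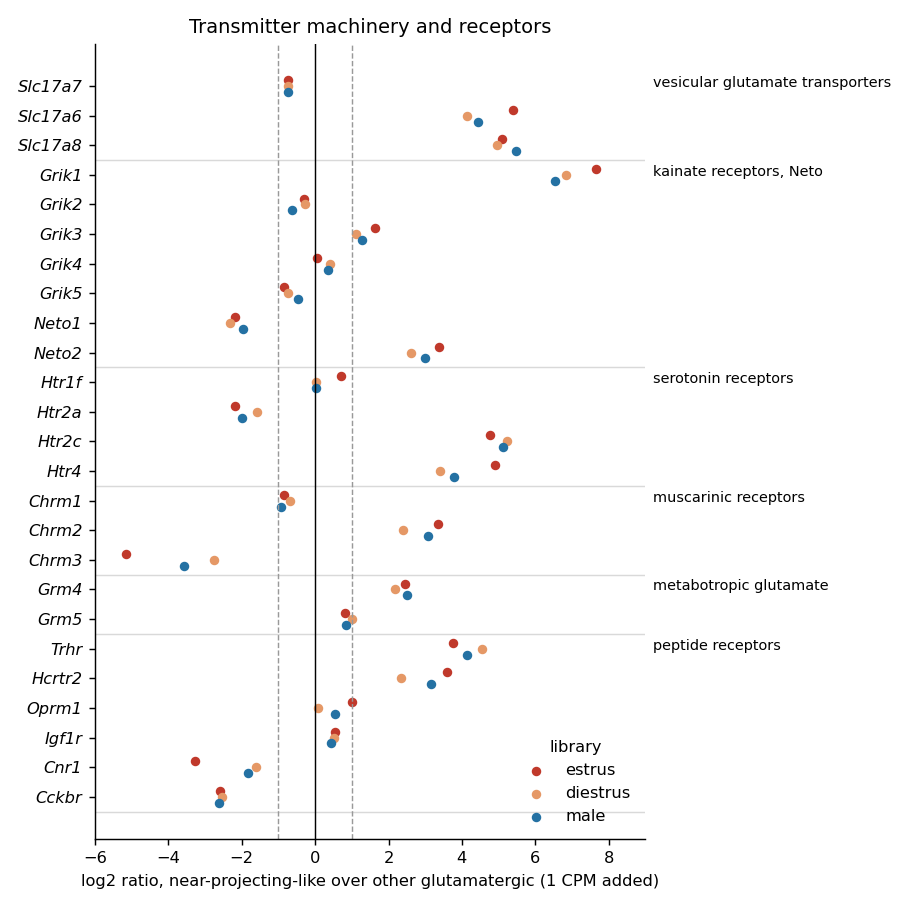
Log2 ratio of near-projecting-like members over other glutamatergic neurons (x axis, 1 CPM added) for vesicular glutamate transporters and receptor genes, 1 point per library; dashed lines mark 2-fold. Slc17a7 was part of the gate. Grik1, Neto2, Htr2c, Htr4, Chrm2, Trhr and Hcrtr2 lie above the line and Neto1, Htr2a, Chrm3, Cnr1 and Cckbr below it in all 3 libraries.

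Transcription factors of cortical projection neurons of all layers went both ways. Of 27 measured factors (32 listed), 14 were higher and 10 lower in all libraries, beside 2962 and 2238 of 7410 over all genes. At least 2-fold, 5 were higher and 3 lower in all libraries, beside 223 and 263 over all genes. The median was 0.40. Etv1, an ETS factor of layer 5, was 705, 786 and 820 CPM against 81.8, 94.1 and 118, and was detected in 72, 141 and 91 members. Tle4, a corepressor of deep corticofugal neurons, was 452, 544 and 572 CPM against 63.0, 171 and 160. Bcl11b and Fezf2, both known for subcerebral projection identity, were 338, 281 and 288 CPM against 86.9, 117 and 76.8, and 233, 185 and 200 against 57.3, 51.8 and 45.8. Lmo3 was also higher. Cux2 and Rorb, of upper layers and layer 4, and Id2 were the 3 lower genes. Cux2 was 7.78, 6.33 and 7.09 CPM against 78.7, 46.5 and 65.5. In layer 6 corticothalamic-like barcodes Cux2 was 2.33, 1.08 and 1.82 CPM, below members.

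Adhesion and axon guidance genes split. Of 44 measured, 8 were at least 2-fold higher and 12 at least 2-fold lower, with a median of -0.33. The higher genes were Nxph1, its relative Nxph3, the netrin receptor gene Dcc (1509, 1441 and 1599 CPM against 193, 426 and 402), the contactin gene Cntn6 (435, 407 and 436 against 42.8, 48.8 and 71.6), Cdh18, Slit1, Sema5a and Pcdh17. Epha4, Efnb2, Slit2, Cntn5 and Cdh13 were among genes lower in members; Epha4 was 19.7, 33.8 and 23.6 CPM against 240, 228 and 238.

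Among 32 potassium channel genes, Kcnip1 and the leak channel gene Kcnk2 (251, 258 and 235 CPM against 48.3, 63.4 and 58.2) were at least 2-fold higher. Lower were Kcnc2, a fast delayed rectifier, Kcnd3, Kcnq5, Kcnj6 and the Kv4 partner Dpp10, the last at 569, 1318 and 1047 CPM against 3475, 5383 and 5531. Of 17 calcium channel genes, none was at least 2-fold higher in all libraries and Cacna2d3, Cacng3 and Cacna1e were lower.

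Most immediate early genes and several late activity genes were lower in members than in other glutamatergic neurons. Over all 7410 genes, 2238 were lower and 2962 higher in all 3 libraries. Of 14 measured immediate early genes, 12 were lower in all 3 libraries, 4 of them at least 2-fold, with a median of -0.75. Egr3 was 39.4, 35.9 and 34.9 CPM against 129, 148 and 89.2. Of 13 measured late activity genes, 9 were lower in all libraries and 6 at least 2-fold, with a median of -1.07. Bdnf stood at 23.4, 14.1 and 17.7 CPM against 191, 121 and 86.0. In layer 6 corticothalamic-like barcodes Bdnf was also low, at 26.9, 14.6 and 13.7 CPM, so its low level was not particular to members. Scg2, a secretogranin gene of the late list, was higher in all libraries, with log2 ratios of 0.75, 0.64 and 0.91, and the other 3 went both ways. Cytosolic ribosomal protein genes, for comparison, had none of 30 past 2-fold in either direction and a median of 0.05.

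The 622 layer 6 corticothalamic-like barcodes (120, 299 and 203) lacked most of the leading genes of members. Of 7294 genes, 230 (3.15%) were at least 2-fold higher in members than in them and 201 (2.76%) at least 2-fold lower in all libraries. Of the 223 genes higher than in other glutamatergic neurons, 138 (61.9%) were among these 230. Of the 263 genes lower than in other glutamatergic neurons, 101 (38.4%) were among these 201. Htr2c was 1.55, 0.650 and 0.808 CPM and Grik1 1.03, 1.52 and 6.06 CPM in the corticothalamic-like barcodes, and Slc17a8 was 0, 0.108 and 0. The heparan sulfate enzyme gene Hs6st3 (738, 824 and 921 CPM in members against 17.1, 17.8 and 29.7) and the adhesion gene Kirrel3 (679, 1103 and 904 against 4.66, 41.4 and 39.6) also separated the groups. The L6 CT markers as a list summed to 970, 1076 and 1091 CPM in members, of which Tle4 gave 452, 544 and 572, against 242, 561 and 540 in other glutamatergic neurons.

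Variation among members was largest in genes of other cells and in abundant neuronal RNAs. With each member thinned to 4000 UMIs, the median variance to mean ratio over 3388 genes was 0.97. The highest ratios belonged to Hbb-bs, Hba-a1 and Hba-a2, haemoglobin genes with 52.0% to 94.9% of their UMIs in 1 barcode per library, followed by the nuclear RNA Malat1, Dpp10, the astrocyte and microglia apolipoprotein gene Apoe, Gm42418, a noncoding RNA, Kcnip4, Lsamp and Sgcz. Dpp10 was detected in 51 of 72, 105 of 143 and 69 of 93 members. Depth within a library also moved some leaders: Htr2c was 217, 483 and 432 CPM in members below the median UMI total and 484, 556 and 540 in the others, and Grik1 343, 526 and 425 against 535, 602 and 701.

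Few of all measured genes were past 2-fold between 2 libraries in members, by the counts below. None of the 15 leading genes, which were chosen for high ratios in every library, was so for any pair. The largest ratios were those of Lcp1, -0.85 for estrus over male and -0.60 for diestrus over male, Stard5, -0.53 and -0.65 for estrus over diestrus and over male, and Htr4, 0.54 (0.33 to 0.77) and 0.58 (0.33 to 0.84). Htr2c was -0.45 (-0.58 to -0.33) for estrus over diestrus, and Slc17a8 at most 0.10 in size. Each value is from 1 library per state. Of 7162 genes, 32 (0.447%) were at least 2-fold higher in estrus than in diestrus members and 72 (1.01%) at least 2-fold lower. Estrus against male gave 47 higher (0.756%) and 45 lower (0.724%) of 6214, and diestrus against male 21 higher (0.301%) and 12 lower (0.172%) of 6982. The last split depended on cells: it was 3 higher and 13 lower in members with no UMI of Gad1, Gad2, C1qa, Cldn5, Mog or Gja1, and 10 higher and 0 lower in members of 10000 to 30000 UMIs. The same counts in other glutamatergic neurons were 26 higher (0.355%) and 40 lower (0.546%), 46 (0.622%) and 64 (0.865%), and 8 (0.109%) and 6 (0.0817%). The 3 comparisons share libraries and are not independent of one another.

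Some of the largest differences came mainly from 1 barcode, and others remained without it. Acta2 and Tagln, smooth muscle genes, stood at 71.1 and 73.7 CPM in estrus members with 98.5% and 99.3% of these UMIs in a single barcode, and the 5 pericyte markers summed to 134, 19.0 and 29.0 CPM, or 93.3, 13.6 and 18.8 without the highest barcode. Oligodendrocyte markers summed to 254, 658 and 121 CPM, or 168, 509 and 103 without the highest barcode. Mbp, a myelin gene, stood at 42.0, 127 and 30.1 CPM. Its log2 ratio for estrus over diestrus was -1.57, and -1.39 without its highest barcode. Ptgds was 270, 1042 and 34.3 CPM, 81.4% of it in 1 diestrus barcode. The haemoglobin gene Hbb-bs was 1526, 389 and 3264 CPM with 94.9%, 86.6% and 58.9% in 1 barcode. GABAergic markers summed to 24.9, 52.4 and 78.6 CPM, with Gad1, Slc32a1 and Lhx6 at 0 in estrus. What part these other-class transcripts have in any gene's difference between libraries was not tested. Of the 104 genes past 2-fold between estrus and diestrus, 7 had at least 50% of their UMIs in 1 barcode, and 96 stayed past it without each gene's highest barcode. With the limits on measured genes applied again after that removal, the counts were 23 higher (0.326%) and 77 lower (1.09%) for estrus over diestrus, 42 (0.677%) and 45 (0.725%) for estrus over male, and 17 (0.245%) and 10 (0.144%) for diestrus over male.

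Genes spread over many members were therefore taken separately, as those with at most 15% of UMIs in any barcode of the higher library; this limit was set after values were seen. Cntfr, the ciliary neurotrophic factor receptor alpha subunit (chr4:41657498-41697089), was the lowest in estrus relative to diestrus. It had 8, 105 and 71 UMIs, or 4.15, 36.9 and 41.96 CPM, and was detected in 7 of 72, 54 of 143 and 26 of 93 members, with 16.9% of its male UMIs in 1 barcode. The log2 ratio was -2.88 for estrus over diestrus (95% counting interval -4.40 to -2.12) and -3.06 for estrus over male (-4.60 to -2.28). In other glutamatergic neurons Cntfr was 20.1, 22.2 and 22.03 CPM, ratios of -0.14 and -0.13. With barcodes thinned to 4000 UMIs it was detected in 1.27%, 12.4% and 10.3% of members and 7.74%, 7.98% and 8.19% of other glutamatergic neurons. Diestrus and male members differed by -0.18 (-0.63 to 0.27).

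Other genes were lower in estrus members with a smaller ratio in other glutamatergic neurons. Pde1a, a calmodulin-dependent phosphodiesterase (chr2:79834453-80129458), was 45.7, 182 and 138 CPM, a log2 ratio of -1.97 (-2.33 to -1.66) over diestrus against -0.46 in other glutamatergic neurons. Rasgef1b was 24.4, 80.2 and 60.3 CPM, -1.68 against -0.37. The protocadherin gene Pcdh15 was 110, 217 and 288 CPM, -1.38 over male against -0.05. These 3 genes were all lower in members than in other glutamatergic neurons in every library, and were detected in 25, 78 and 46, in 26, 65 and 51, and in 36, 82 and 57 members.

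Several genes differed alike in both populations. Cmss1 was 1876, 305 and 429 CPM in members, a log2 ratio of 2.62 over diestrus against 2.41 in other glutamatergic neurons. Gm42418 was 9891, 2307 and 2770 CPM, 2.10 against 1.83, and Gm19951 was 90.8, 10.6 and 21.9 CPM, 2.99 against 2.45. AC149090.1, on an unplaced scaffold, was 98.1, 358 and 187 CPM, -1.86 against -1.91. The messenger RNA genes Hnrnpa0, an RNA-binding protein, and Csnk2a2, a casein kinase 2 subunit, were also higher in estrus in both, at 1.39 against 1.34 and 1.34 against 1.38. Ier5 and Ier5l, immediate early response genes, were 72.7, 46.4 and 24.8 CPM and 51.4, 25.0 and 15.96 CPM, 1.51 and 1.63 over male against 1.58 and 1.501 in other glutamatergic neurons. Of the 32 genes at least 2-fold higher in estrus than diestrus members, 12 were so in other glutamatergic neurons too, and of the 72 lower, 5 were.

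A few genes were higher in estrus members with less difference elsewhere in the gate. Camk1d, a calmodulin-dependent kinase, was 906, 248 and 329 CPM, 1.87 (1.74 to 2) over diestrus against 1.01. Phlda1 was 51.4, 16.9 and 18.9 CPM, 1.55 (1.09 to 2.13) against 0.49, and Clec2l was 60.7, 20.8 and 28.4 CPM, 1.505 (1.09 to 2.03) against 0.78.

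**Figure D5:**
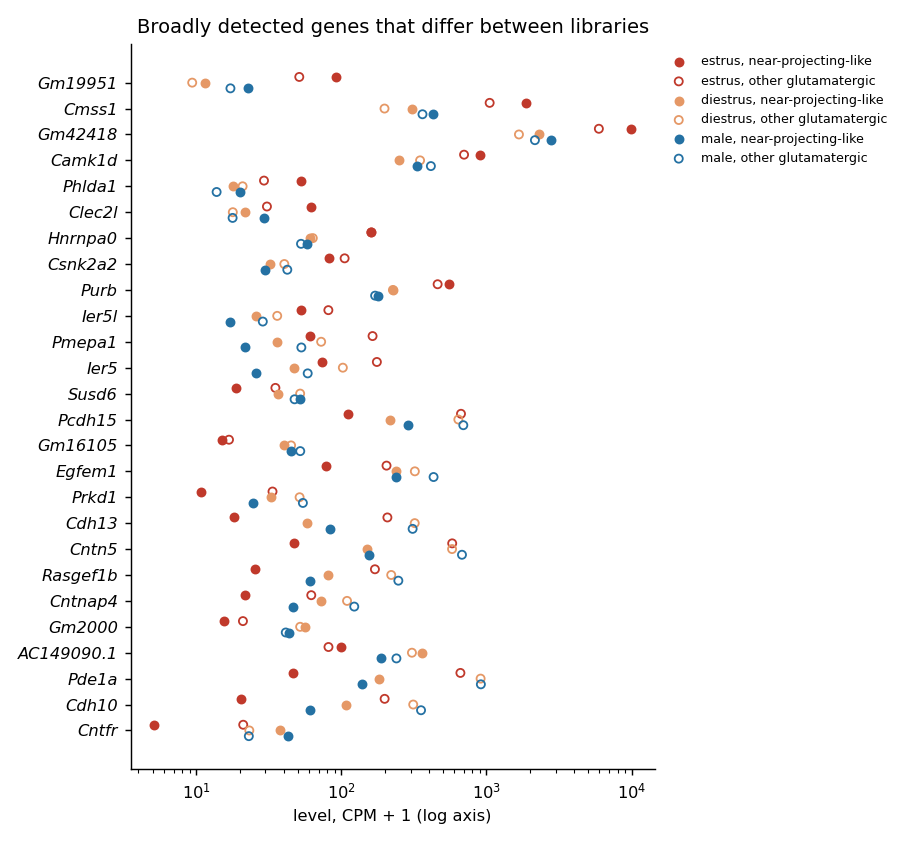
Levels (CPM + 1, log axis) of broadly detected genes that differ most between the estrus library and the diestrus or male library, in near-projecting-like members (filled) and other glutamatergic neurons (open). The estrus point of Cntfr is apart in members alone, and those of Cmss1, Gm42418 and Gm19951 are apart in both populations.

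Diestrus and male members differed least. Among broadly detected genes, Oprm1, the mu opioid receptor gene, was 41.0, 39.0 and 70.9 CPM, -0.84 for diestrus over male (-1.25 to -0.48) against -0.38 in other glutamatergic neurons. Sema3e, a secreted semaphorin, was 85.6, 69.6 and 121 CPM, -0.79 (-1.09 to -0.51) against -0.05. Slc50a1, a sugar transporter gene, was 31.7, 35.5 and 14.8 CPM, 1.21 (0.62 to 1.96) against 0.07. Oprm1 and Sema3e stayed within the 2-fold line, and estrus and diestrus were close for each of the 3 genes.

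Most measured AMPA, NMDA and adhesion genes were lower in estrus members. All 8 AMPA and NMDA genes were lower in estrus than in diestrus members and than in male members, with medians of -0.28 and -0.30, and none was past 2-fold; other glutamatergic neurons gave -0.25 and -0.33. Adhesion and guidance genes were lower in 32 of 40 (8 past 2-fold, median -0.42) and 36 of 38 (5 past 2-fold, median -0.31), against -0.27 and -0.43 in other glutamatergic neurons; over all genes 3470 of 7162 and 3043 of 6214 were lower, 1.01% and 0.724% past 2-fold. Gene length moved with this contrast: the median ratio of estrus over diestrus went from 0.18 in the shortest of 5 equal length classes (median 5.18 kb) to -0.16 in the longest (206 kb) in members, and from 0.26 to -0.20 in other glutamatergic neurons. After a running median over length was subtracted, the AMPA and NMDA medians were -0.13 and -0.06 and the adhesion medians -0.22 and -0.16. The median over all genes was 0.01 in both contrasts.

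Cholesterol synthesis genes were higher in estrus than diestrus members in 10 of 13, with a median of 0.34 (0.21 after the length correction, 0.25 in other glutamatergic neurons), and higher than in male in 12 of 13, with 0.30. The estrus over male ratio also fell with gene length, from a median of 0.23 in the shortest length class to -0.20 in the longest in members, and from 0.31 to -0.25 in other glutamatergic neurons. Hmgcs1, which encodes an early enzyme of the pathway, was 195, 131 and 158 CPM. None passed 2-fold. Immediate early genes were higher in estrus than diestrus in 9 of 12, with a median of 0.46, which dropped to 0.24 without the highest barcode of each gene and was -0.18 in other glutamatergic neurons. Beside these list counts, about as many of all measured genes were lower as higher in estrus members in both contrasts, by the counts given above.

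Steroid and hormone receptor genes were described because the study compared reproductive states. Pgr, the progesterone receptor gene, was 47.2, 44.0 and 43.7 CPM in members, with log2 ratios of 0.10, 0.11 and 0.01 between libraries, and was detected in 44, 70 and 44 members. Nr3c1, the glucocorticoid receptor gene, was 151, 145 and 131 CPM. Of 9 measured genes of the steroid list, 8 were higher in estrus than in diestrus, with a median of 0.10 and none past 2-fold, beside 3692 of 7162 over all genes; the list median in other glutamatergic neurons was -0.09.

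Esr1, the estrogen receptor alpha gene, gave few counts. It had 1, 2 and 17 UMIs in members, or 0.519, 0.703 and 10.0 CPM (exact Poisson intervals 0.0131 to 2.89, 0.0852 to 2.54 and 5.85 to 16.1), from 1, 2 and 9 members, while other glutamatergic neurons gave 5.92, 7.41 and 6.81 CPM. Esr2 had 0, 2 and 0 UMIs and Gper1 8, 2 and 0. A count of 0 allows up to 1.56 CPM in estrus members and 1.77 in male members. Oxtr, the oxytocin receptor gene, had 0, 0 and 1 UMIs in members, too few to give a level. Other glutamatergic neurons held 0.984, 1.04 and 0.883 CPM of Oxtr.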

How the data were processed

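Each library is a table of UMI counts per gene and barcode as deposited and not normalized. The submitters' processing notes name Cell Ranger 3.0.2 and mm10, and the authors' count files name version 7.0.0, per the file headers. The sources used here do not say which gene annotation was used, whether introns or strand were counted, or how cells were called. 15000 cells were loaded per library, per the labels' protocols. Of 32285 listed genes, 32235 matched GENCODE vM21 (mm10) by identifier, which gave coordinates and lengths.

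Members were chosen by the rule given above on raw counts, with Python 3.11.15, numpy 2.4.6, scipy 1.17.1 and pandas 2.3.3. Counts were summed per library and population, scaled over 32272 nuclear genes, and compared as log2 ratios with 1 CPM added. Intervals are 95% Clopper-Pearson or exact Poisson intervals, and those of ratios are exact conditional binomial intervals without the added CPM. A gene entered a comparison with at least 100 UMIs and a mean of 20 CPM; mitochondrial genes and the genes of the rule were left out. UMIs of droplet barcodes include free RNA. The procedure was tested on simulated data with independent Poisson counts per gene. These hold no spread between barcodes or mice, so the test covers counting error only.

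Named genes were the 15 highest and 10 lowest against other glutamatergic neurons by their least extreme library, the 8 highest and 8 lowest per pair of libraries, the 5 and 5 per pair with the largest difference from other glutamatergic neurons, the 10 most variable among members and examples of each list; genes with at most 15% of UMIs in 1 barcode, the examples against corticothalamic-like barcodes, and further list genes such as Chrm1, Trh and Hrh2, were added after values were seen. Members, rule and gene lists were chosen with earlier results of these data known. Alternatives used other gates, depth windows, filters, edgeR 4.0.16 TMM and DESeq2 1.42.0 size factors. Results of a few genes are not reported here.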

Additional observations from a re-analysis of the deposited data

Results flagged for a closer look

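Each gene below was past 2-fold between libraries in members, with and without its highest barcode, and went the other way in other glutamatergic neurons, with both counting intervals off 0; with 1 library per group, none of these differences was tested. Values are log2 ratios in members, with that in other glutamatergic neurons in brackets.

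For estrus over diestrus these were Vtn 4.41 (-0.41), Gpc5 4.13 (-0.12), Mbp -1.57 (0.17), Zfp804b -1.25 (0.19), Zdhhc14 -1.13 (0.32) and Fstl5 -1.01 (0.16). Gpc5 was 103 and 4.92 CPM, found in 9 and 5 members. Vtn, a pericyte marker, came from 6 estrus members, 36.4% of it from 1.

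For estrus over male they were Vtn 6.20 (-0.16), Ptgds 2.94 (-1.06), Glul 1.502 (-0.15), Plpp3 1.13 (-0.44) and Tafa1 -2.06 (0.27). Vtn had no UMI in male members, so the printed ratio is no bound; against 3 counts it was at least 41.0-fold higher in estrus. Tafa1 had 60% of its estrus UMIs and 46.1% of its male UMIs in 1 barcode.

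For diestrus over male they were Ptgds 4.89 (-1.03), Trf 2.34 (-0.48), Mbp 2.03 (-0.34), Cnp 1.94 (-0.64), Mal 1.76 (-1.08), Car2 1.33 (-1.06), Gatm 1.32 (-0.58) and Tspan2 1.26 (-0.32). Without each gene's highest barcode the Ptgds value was 2.52. Most of these genes are known from myelinating cells, whose 6 markers summed to 658 CPM in diestrus members and 121 CPM in male members; their part in the ratios was not tested.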

How the results depend on the processing

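No paired analysis was possible because each group is 1 library, and for the same reason no library could be left out. The share of members in estrus and diestrus was 11.3% and 13.2% at 10000 to 30000 UMIs, and that in male 10.1% there, 8.23% with a mitochondrial share up to 5% and 4.81% with barcodes thinned to 4000 UMIs. Against other glutamatergic neurons 486 genes passed 2-fold, 1181 with no filter and 279 at a mean of 50 CPM. Counts for estrus over diestrus, estrus over male and diestrus over male were 104, 92 and 33; they became 1798, 2295 and 1593 with no filter, 42, 40 and 10 at 50 CPM, and 67, 52 and 10 at 10000 to 30000 UMIs. Without a UMI of the 6 other-class genes the first and last were 56 and 16, and with Tshz2 and Vwc2l at 16 or more the second was 60. More genes enter with no filter and fewer at 50 CPM, and fewer barcodes enter the gates and the depth window, by construction.

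The higher share of calls moved from 51.1% to 39.8% (barcodes weighted alike), 41.0% (length correction) and 38.7% (no filter) for estrus over male, and from 63.6% to 18.8%, 100%, 46.5% and 50% for diestrus over male without other-class UMIs, at 10000 to 30000 UMIs, with no filter and at 50 CPM.

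Of 400 alternative values of 25 results against other glutamatergic neurons, 0 reversed, but these genes were chosen for the most extreme ratios. Of 1875 alternative values of 118 library-pair results, 16 reversed. At 10000 to 30000 UMIs these were, for estrus over diestrus, Myl9 (-0.21) and Tagln (-1.17); for estrus over male, Hbb-bt (0.60), Hbb-bs (0.82), Hba-a1 (0.38), Hba-a2 (0.97), Trf (-0.85) and Tagln (0, no UMI left); and for diestrus over male, Hbb-bt (0.67) and Hba-a2 (0.48). Without other-class UMIs they were Trf (-0.84) and Slc1a3 (-2.06) for estrus over male, and St18 (-0.88) and Mal (-0.35) for diestrus over male. Ptgds for estrus over diestrus was 0.45 after thinning, and Tagln -0.16 without its highest barcode. The cause of each was not tested.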

Other observations

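Avpr1a, the vasopressin 1a receptor gene, was under the limit for measured genes but nearly absent elsewhere in the gate. It had 12, 14 and 4 UMIs in 10, 12 and 4 of the estrus, diestrus and male members, or 6.23, 4.92 and 2.36 CPM (exact Poisson intervals 3.22 to 10.9, 2.69 to 8.26 and 0.644 to 6.05). Other glutamatergic neurons held 0, 2 and 1 UMIs, from 0 of 1373, 2 of 1633 and 1 of 1467 barcodes. It was named after its values were seen.

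Chrna5, the alpha 5 nicotinic subunit gene, also under that limit, was 22.3, 21.5 and 8.87 CPM in members and 2.52, 5.10 and 4.24 CPM in other glutamatergic neurons, from 43, 61 and 15 UMIs in 17, 28 and 13 members; it too was named after its values were seen. Hrh2, the histamine H2 receptor gene, was 41.5, 39.4 and 45.5 CPM in members and 0.259, 1.30 and 2.02 CPM in layer 6 corticothalamic-like barcodes.

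Clock genes were measured in 12 of 15 cases. Of these, 3 were at least 2-fold lower in members than in other glutamatergic neurons in all libraries, beside 263 (3.55%) of 7410 over all genes. Npas2 was 18.2, 45.4 and 31.3 CPM against 95.0, 110 and 120, and Nr1d1 24.4, 19.7 and 18.3 CPM against 54.3, 51.9 and 46.5. In layer 6 corticothalamic-like barcodes Npas2 was 53.0, 67.2 and 80.8 CPM and Nr1d1 35.4, 33.6 and 29.3 CPM, between these values. Bhlhe40, also at least 2-fold lower, was 16.1, 14.4 and 7.68 CPM in members. It was lower still in corticothalamic-like barcodes, at 11.6, 9.64 and 3.64 CPM. The list median was -0.42.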
